A study of Mus musculus with 21 samples.

Results

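Type IIb myonuclei are the cells that the authors labelled "Myonuclei (Type IIb)" after integrating their samples with Harmony and that were not placed in 1 of 4 states of the myogenic trajectory. By this rule 2628 of 87822 cells were type IIb. The Harmony label covered 2682 cells, of which 54 were left out because the trajectory placed them among fusing myocytes, 19 of them in uninjured muscle and 14 at 7 days post-injury (dpi). All cells came from the tibialis anterior, a fast muscle of the lower leg, of female C57Bl/6J mice aged 20 months. Both muscles of an injured mouse had received notexin and 1 mouse was 1 sample. Time points 1 and 3.5 dpi had 4 mice each, time points 2, 5 and 7 dpi had 3 each, and 4 mice were uninjured. The uninjured mice were the controls of every comparison.

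Type IIb fibers are the fastest and most glycolytic fibers of mouse limb muscle and are defined by the myosin heavy chain gene Myh4, whereas the neighbouring type IIx fibers use Myh1. A myofiber is 1 long cell with many nuclei, and most fibers are lost when a muscle is dissociated into single cells, so a droplet with a myonuclear label holds a nucleus, a fiber fragment or fiber RNA rather than a whole fiber. Notexin is a snake venom phospholipase A2 that destroys myofibers and spares the stem cells that rebuild them. The share of such droplets is therefore not a count of fibers.

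The deposited values were labels and summary measures of each cell and held no value for a single gene. Levels of Myh4, Acta1 and Ckm, the markers of the label, were not analysed here, and the label could be checked only against the authors' other labels. Scanorama labelled 2588 of the 2628 cells (98.5%) as "Myonuclei (Cell Prep)", and BBKNN labelled 2586 (98.4%) so. Neither of these labels separated the fiber types in these cells, apart from 15 cells that BBKNN called type IIb and 2 that it called type IIx. Both methods called 2588 of the cells a myonucleus of some kind. The few others were called mostly T cells by BBKNN (19 cells) and NK cells by Scanorama (30 cells). No type IIb cell carried a doublet call, which is no check of the label, since the authors had removed the called doublets. Among type IIb barcodes, 2 occurred in more than 1 sample, and 55 were also found on some cell of another sample.

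Some libraries stood apart. The sample 1 dpi C held 9 type IIb cells, under the minimum of 10 used for per-cell medians, and 0 type IIx cells of 4530, which allows a share of up to 0.0662%. Uninjured replicate D and 1 dpi B, which held the fewest cells kept (974 and 1197), were the libraries sequenced to over 100000 mean reads per cell. The 21 samples summed to between 5602464 and 70730171 unique molecular identifiers (UMIs, each marking 1 captured transcript) after the authors subtracted ambient RNA.

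Type IIb cells were a sizeable part of uninjured muscle, scarce at 2 and 3.5 dpi and again numerous at 7 dpi, but the mice of a group differed widely and the change in share did not pass the test. In uninjured mice the share of all cells was 15.3% in replicate A, 9.08% in B, 2.27% in C and 7.39% in D. At 1 dpi it was 3.09%, 12.8%, 0.199% and 1.59% in A to D. The uninjured shares ran from 2.27% to 15.3% and 1 dpi B lay among the highest of all samples, so both groups overlapped widely. At 2 dpi the shares were 0.379%, 0.652% and 2.51%. At 3.5 dpi they were 2.68%, 1.33%, 0.415% and 0.462%. All of these lay at or below the low end of the uninjured range, apart from 2 dpi C and 3.5 dpi A, which lay just above uninjured replicate C. At 5 dpi the shares were 2.41%, 0.791% and 5.16%, and at 7 dpi 4.61%, 6.79% and 11.6%. The 7 dpi mice all lay within the uninjured range. Counting error was small beside this spread, with exact Clopper-Pearson 95% intervals of 13.8% to 16.9% for uninjured replicate A and 0.0909% to 0.377% for 1 dpi C.

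**Figure D1:**
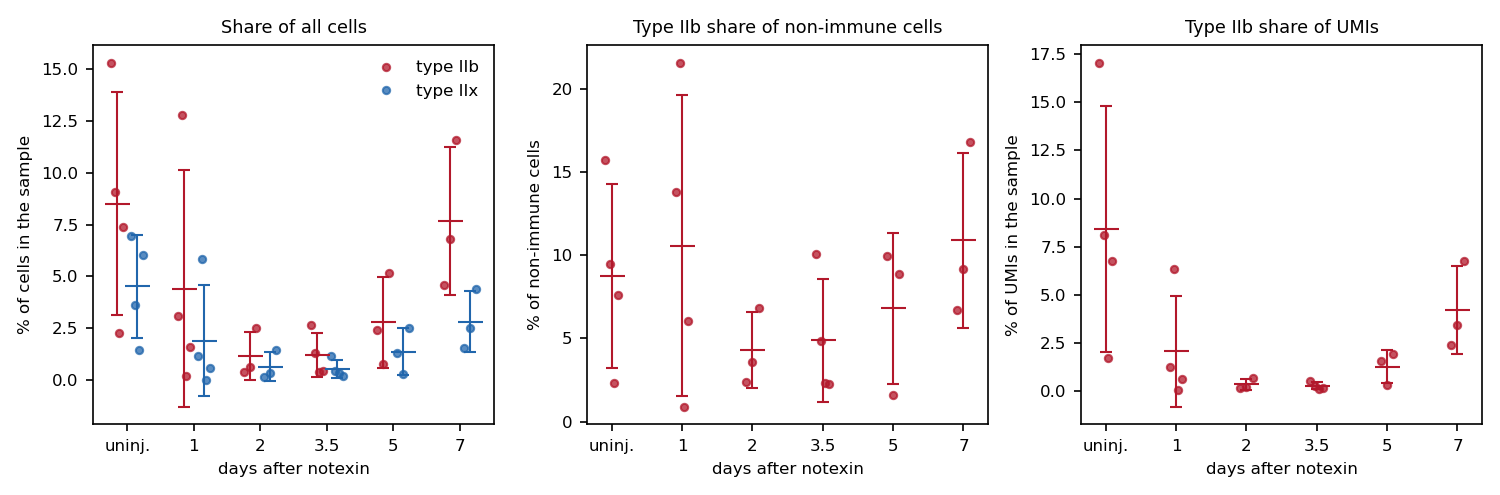
Type IIb and type IIx cells as a percent of all cells (left), type IIb as a percent of non-immune cells (middle) and type IIb UMIs as a percent of all UMIs of the sample (right), by days after notexin. Each point is 1 mouse, dashes are group means and bars are SD (n = 3 or 4 mice). Type IIb shares were lowest at 2 and 3.5 dpi on the left (means 1.18% and 1.22%) and lay between 4.61% and 11.6% in the 3 mice at 7 dpi.

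The mean share was 8.51% ± 5.38 (SD, n = 4) in uninjured muscle. After injury the means were 4.42% ± 5.70 (1 dpi, n = 4), 1.18% ± 1.16 (2 dpi, n = 3), 1.22% ± 1.06 (3.5 dpi, n = 4), 2.79% ± 2.21 (5 dpi, n = 3) and 7.66% ± 3.56 (7 dpi, n = 3). Over the 6 time points the permutation test of the F statistic gave p = 0.0552, and 0.0605 after Benjamini-Hochberg adjustment over the 23 cell types. By the same test 18 of the 23 types (78.3%) passed, so type IIb was among the minority of types that did not. Type IIx also missed it, with an adjusted permutation p of 0.0687. Against uninjured muscle, two-sided exact permutation tests gave adjusted p of 0.393, 0.214, 0.214, 0.238 and 0.829 from 1 to 7 dpi, where the smallest unadjusted p possible is 0.0286. This missed call depended on the method. Without 1 dpi B the adjusted p was 0.0143, without 1 dpi C 0.0397, without uninjured replicate C 0.0284, and with edgeR's quasi-likelihood test on the cell numbers with TMM scaling 0.00214.

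The lower mean type IIb share at 1 to 3.5 dpi came beside a large immune fraction, though 1 dpi B had a high share. Immune cells made up 2.71% ± 0.69 of uninjured samples and 73.4% ± 4.28 of those at 3.5 dpi (n = 4 each). They made up 62.3% ± 16.7 at 1 dpi (n = 4) and 68.7% ± 8.85 at 2 dpi (n = 3). At 5 and 7 dpi they made up 52.3% ± 17.0 and 27.6% ± 2.97 (n = 3 each). Among non-immune cells type IIb accounted for 8.76% ± 5.52 in uninjured muscle and, from 1 to 7 dpi in turn, for 10.6% ± 9.04, 4.29% ± 2.30, 4.88% ± 3.67, 6.81% ± 4.53 and 10.9% ± 5.25. The 1 dpi group ran from 0.891% in C to 21.5% in B, the lowest and the highest of all 21 values. The time course on this denominator had an adjusted permutation p of 0.798, in a family where 4 of 13 types (30.8%) passed.

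Counted in UMIs rather than cells, the mice at 2 and 3.5 dpi did not overlap with uninjured ones. Type IIb cells supplied 17.1%, 8.10%, 1.71% and 6.73% of all UMIs in uninjured replicates A to D. At 2 dpi they supplied 0.164%, 0.185% and 0.644%, and at 3.5 dpi 0.524%, 0.226%, 0.115% and 0.155%. All 7 of these mice lay below the lowest uninjured mouse. The other 2 early groups overlapped with uninjured mice. Type IIb supplied 1.25%, 6.32%, 0.0444% and 0.598% at 1 dpi in A to D, and 1.55%, 0.282% and 1.93% at 5 dpi. The lowest value of all samples was that of 1 dpi C. The percent was 2.38%, 3.41% and 6.76% in the 3 mice at 7 dpi, inside the uninjured range. Its mean there was 4.18% ± 2.29 (n = 3), below the 8.40% ± 6.40 of uninjured mice (n = 4). The other cells, which make up most of this denominator, held more UMIs per cell after injury, with mean medians of 4014 in uninjured mice, 7040 at 2 dpi and 12257 at 3.5 dpi. Their part in the fall of this percent was not tested. A permutation test of this percent over the 6 time points, added after the shares had been seen, gave p = 0.00842 for 1 comparison.

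Across the 21 mice the type IIb share followed that of type IIx (Pearson r = 0.947, Spearman rho = 0.957, permutation p = 1e-05 for each, the smallest that 100000 resamples can give, adjusted p = 5.00e-05 over 5 relations). With the mean of each time point removed r was 0.934, and it was 0.984 without the 2 samples farthest from the median type IIx share. Both shares have the same denominator. Mice with more cells kept had a lower type IIb share (r = -0.576, rho = -0.694, adjusted permutation p = 0.0130 for r and 0.000967 for rho), and r was -0.558 within time points and -0.599 without the 2 outermost samples. The number of cells kept is itself the denominator of the share. Libraries with higher sequencing saturation had a higher type IIb share (r = 0.697, rho = 0.795, adjusted permutation p = 0.00187 for r and 0.000125 for rho). That r was 0.642 without the 2 outermost samples and 0.579 within time points, where its adjusted permutation p was 0.0606, while the rho of 0.558 within time points passed (0.0356). For mean reads per cell r was 0.403 (adjusted permutation p = 0.0834) and rho 0.460 (0.0478). That r fell to 0.144 without uninjured replicate D and 1 dpi B. Leaving out 1 sample gave r from 0.238 to 0.540, and it passed without uninjured replicate A (r = 0.540) or B (r = 0.495). Among the 17 injured mice r was 0.695, where it was not tested. The size of this relation thus depended on the libraries kept. Within time points r was 0.499 (adjusted permutation p = 0.123) and rho 0.565 (0.0356). The relation with the estimated ambient contamination did not pass over all mice (r = -0.271, rho = -0.350, adjusted permutation p = 0.233 and 0.118). Within time points its r of -0.399 did not pass (0.112) and its rho of -0.500 did (adjusted permutation p = 0.0432). Libraries also differed between groups in the percent of reads that lay in cells. It was 48.6% ± 5.60 in uninjured samples, 94.55% ± 0.26 at 3.5 dpi and 71.6% ± 4.66 at 7 dpi, and 47.7% in 1 dpi B. Cells kept were 39.9% ± 10.4 of the cells first estimated in uninjured samples and 71.1% ± 4.68 at 3.5 dpi. The relation of these 2 values to the share was not tested. The part of saturation, depth, reads in cells and cell recovery in the time course of the share was not tested.

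**Figure D2:**
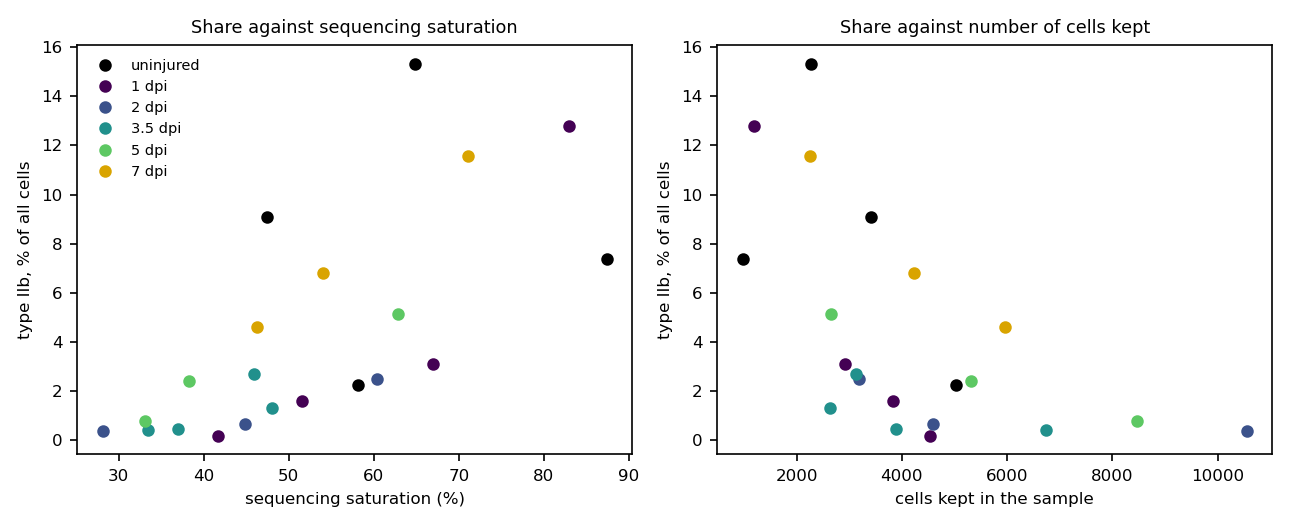
Type IIb share of all cells (%) against sequencing saturation (%, left) and against the number of cells kept (right), 1 point per mouse, coloured by time point. The shares above 10% came from samples of at most 2267 cells, and the sample with the most cells had a share of 0.379%.

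The balance of type IIb and type IIx cells under the Harmony labels varied between mice, and whether its change over time passed the test depended on the filter on cells. Type IIb made up 64.1% ± 7.54 of both types together in uninjured muscle (n = 4). From 1 to 7 dpi in turn it made up 71.3% ± 2.30 (n = 3), 66.7% ± 4.17 (n = 3), 66.5% ± 9.42 (n = 4), 68.4% ± 4.77 (n = 3) and 73.4% ± 1.21 (n = 3). In single mice it ran from 55.0% to 71.6% in uninjured muscle and from 52.8% to 74.5% at 3.5 dpi. The time course did not pass (permutation p = 0.411, n = 20 mice), with a largest difference from uninjured muscle of 9.34 percentage points. When only cells with 1000 genes or more, 2000 UMIs or more and no more than 15% mitochondrial UMIs were kept, it passed (permutation p = 0.0120), with a largest difference of 19.5 points.

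The balance looked different under another set of labels that the authors also deposited. Its name marks it as made before a filter, so it is called the earlier labels here, and how it was made was not given in the sources used here. Of the 2628 type IIb cells, 1976 (75.2%) were type IIb then too and 617 (23.5%) had been type IIx, while of 1161 type IIx cells 15 (1.29%) had been type IIb. The percent of type IIb cells that had been type IIx was 17.3%, 20.3%, 15.8% and 13.9% in uninjured replicates A to D. At 3.5 dpi it was 27.4%, 94.3%, 100% and 100% in A to D. It was also high in 2 dpi A (72.5%), 5 dpi B (76.1%) and the 9 cells of 1 dpi C (100%), and it was 18.9%, 16.7% and 11.5% in the 3 mice at 7 dpi. Thus 3 of the 4 mice at 3.5 dpi kept at most 2 cells that both sets of labels called type IIb.

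By the earlier labels alone, type IIb was 54.2% ± 4.72 of the myonuclei in uninjured muscle. From 1 to 7 dpi in turn it was 62.1% ± 12.4, 48.1% ± 15.6, 25.0% ± 19.4, 40.1% ± 21.9 and 61.5% ± 2.01. The 4 mice at 3.5 dpi stood at 49.2%, 7.69%, 11.1% and 31.9%, and 1 of them lay inside the uninjured range of 47.7% to 57.8%. This time course had a permutation p of 0.0248 (n = 21 mice), and its largest change, a fall at 3.5 dpi, had the opposite sign to the largest change under the Harmony labels. The value at 1 dpi rested in part on 1 dpi C, where 41 cells had the earlier type IIb label. None of them was type IIb under Harmony, which called 23 of them neutrophils and left 12 without a label.

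Depth went with the earlier label. In the 16 mice with at least 10 type IIb cells of each earlier label, the median was 1924 UMIs per cell in cells that had been type IIb and 5053 in those that had been type IIx, as means over mice. The latter were deeper in 16 of 16 mice, by 3129 UMIs ± 2291 (SD). Their mitochondrial percent was lower in 16 of 16 mice, with a mean difference of -2.87 percentage points (SD 3.24), and their heat shock percent was higher in 15 of 16. These are descriptions, since the labels were made from the same cells.

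**Figure D3:**
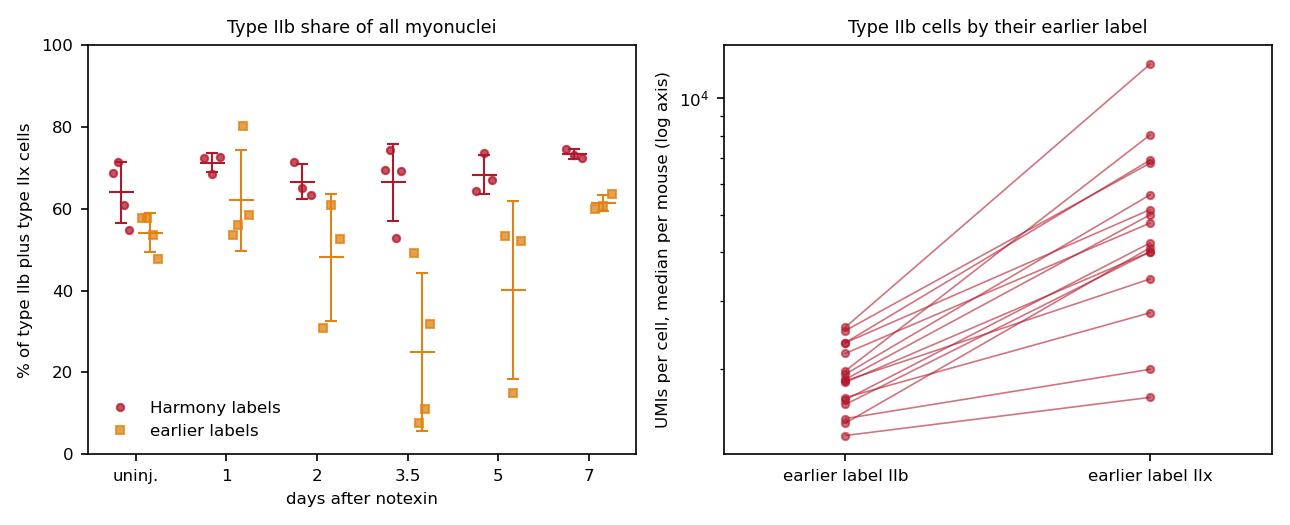
Left, type IIb cells as a percent of type IIb plus type IIx cells by days after notexin, under the Harmony labels (circles, mice with at least 10 type IIb cells) and under the earlier labels (squares), with group means and SD. Right, median UMIs per cell (log axis) of type IIb cells by their earlier label, with 1 line for each of 16 mice. The earlier labels fell to a mean of 25.0% at 3.5 dpi while the Harmony labels stood at 66.5%, and every line on the right rises.

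Type IIb cells were the shallowest cells of the muscle. In uninjured mice the median was 3027, 2816, 2118 and 2213 UMIs per cell in A to D, with a mean of 2543 ± 447, the lowest of 20 types with enough cells and level with neutrophils (2545, 1 mouse). They held a median of 782 ± 71.4 genes per cell, again the lowest of 20 types. For comparison, type IIx cells had 3698 ± 1284 UMIs and 1001 ± 222 genes. Over all type IIb cells the quartiles were 1650 and 4199 UMIs, and the highest reached 175141.6. Neither UMIs (adjusted permutation p = 0.250) nor genes (0.977) passed the test over the time points. Among cells with at least 750 genes UMIs per cell passed and genes per cell did not, so the result for UMIs depended on the filter.

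The study's methods set a minimum of 750 genes per cell, yet 1190 of the 2628 type IIb cells (45.3%) lay under it and the lowest had 500. That percent was between 43.5% and 49.0% in every group mean and did not differ over time (permutation p = 0.934, n = 20 mice). In uninjured mice type IIb had the second lowest percent of UMIs from transcription factor genes, lincRNA (long intergenic noncoding RNA), ribosomal protein genes, heat shock genes and mitochondrial genes among 20 types, and the second highest from protein-coding genes. Type IIx cells ranked beside them, with still lower transcription factor (1.38% against 1.43%), lincRNA (0.0856% against 0.0887%) and mitochondrial percent and the highest protein-coding percent. Antisense RNA was not low, at the 16th place of 20 from the lowest. These ranks are descriptive. Medians of snoRNA, snRNA and miRNA were 0 in all mice.

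Of the 12 per-cell measures that could be tested in type IIb cells, 7 (58.3%) changed over the 6 time points in the 20 mice with at least 10 type IIb cells, against 102 of 260 tests (39.2%) over all cell types. Heat shock, transcription factor and ribosomal protein transcripts, the protein-coding percent and the number of genes per UMI were higher during injury, mitochondrial transcripts were lower, and lincRNA was highest at 7 dpi. Adjusted over all types and measures, 6 of the 7 still passed, and the mitochondrial percent did not. Under that adjustment 102 of 260 tests (39.2%) passed over all cell types, type IIb included. The 260 also hold tests of snoRNA (9 types), snRNA (7) and miRNA (4), none of which passed. These classes could not be tested in type IIb cells, so the 39.2% is not a like-for-like background for them. Many other types changed too. With that adjustment the protein-coding percent passed in 15 of 20 types, the mitochondrial percent in 14, and the ribosomal protein and transcription factor percent in 11 each. The heat shock percent passed in 10 of them, lincRNA in 8 and genes per UMI in 7. The genes that the authors counted in each class were not given in the sources used here.

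Heat shock genes encode chaperones that refold or clear damaged proteins. In uninjured mice their median percent of UMIs in type IIb cells was 0.397, 0.360, 0.378 and 0.429 in A to D. It was 0.773, 0.917 and 1.44 at 1 dpi (A, B and D), 0.787, 1.02 and 0.488 at 2 dpi, and 0.933, 1.10, 1.24 and 1.19 at 3.5 dpi. It was 0.792, 0.680 and 0.730 at 5 dpi and 0.426, 0.461 and 0.387 at 7 dpi. Every mouse from 1 to 5 dpi lay above all 4 uninjured mice, and the 7 dpi mice overlapped with them. The mean relative to uninjured mice was 2.67-fold, 1.95-fold, 2.85-fold, 1.88-fold and 1.09-fold from 1 to 7 dpi in turn. The time course passed with an adjusted permutation p of 0.00200, or 0.00357 over all types and measures, and again when classes were taken as percent of summed UMIs (0.000300). Type IIx cells had 0.508, 0.467, 0.487 and 0.637 in uninjured mice, 1.05, 0.603 and 1.66 at 1 dpi (A, B and D) and 1.36, 1.56 and 1.13 at 3.5 dpi (A to C). The difference between the 2 fiber types did not pass over time (adjusted permutation p = 0.861).

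Transcription factor genes made up 1.36%, 1.25%, 1.60% and 1.53% of UMIs in the 4 uninjured mice. The percent was 1.86, 1.87 and 2.02 at 1 dpi and 2.54, 2.62 and 1.94 at 2 dpi, and all 6 of these mice lay above the uninjured ones. The 3.5 dpi mice, at 1.65, 1.99, 2.04 and 1.85, were above them too, while those at 5 and 7 dpi overlapped with them. The mean rose from 1.43% ± 0.16 (n = 4) to 2.37% ± 0.37 (n = 3) at 2 dpi, with an adjusted permutation p of 0.00617 over time, and 0.0824 as percent of summed UMIs.

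Ribosomal protein genes, which supply the translation machinery, also changed over time, with their highest mean at 3.5 dpi. Their percent was 5.50, 6.52, 6.76 and 7.17 in uninjured mice and 8.85, 9.45, 8.57 and 8.72 at 3.5 dpi, and these groups did not overlap. It was 6.66, 7.47 and 6.50 at 1 dpi (A, B and D) and 7.31, 7.13 and 7.69 at 2 dpi, which overlapped with uninjured mice. It was 7.52, 7.86 and 8.64 at 5 dpi, above all uninjured mice, and 7.65, 6.97 and 8.49 at 7 dpi, where 1 mouse overlapped. The adjusted permutation p over time was 0.00200, 0.0661 among cells with at least 750 genes and 0.0519 as percent of summed UMIs. The protein-coding percent had the same adjusted p and rose from 94.2% ± 0.50 to 96.1% ± 0.16 at 3.5 dpi (n = 4 each), but did not pass as percent of summed UMIs (adjusted permutation p = 0.142).

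The mitochondrial percent counts transcripts of the mitochondrial genome. It was 6.46, 15.7, 11.1 and 0.126 in uninjured replicates A to D, so that D stood far below its group. At 3.5 dpi it was 0.00995, 0.0985, 0.0187 and 0.00452, below even D. The median type IIb cell of these 3.5 dpi mice held 1850, 1860, 1739 and 2473 UMIs. Such percents, and that of D, stand for a few UMIs per cell at most, so their order is not resolved. The mitochondrial percent was 0 in 5 dpi A and 0.193 and 1.45 in the other mice of that group. At 7 dpi it was 3.23, 0.806 and 0.653. Over all type IIb cells, 387 (14.7%) had no mitochondrial UMI left. The adjusted permutation p was 0.0439, and 0.0613 over all types and measures and 0.165 as percent of summed UMIs, and it passed the threshold in 1 of the 20 refits that each left out 1 of the mice tested, the one without uninjured replicate D. In cells without a myonuclear label the percent fell as well, from a mean of 15.7 in uninjured mice to 4.76 at 3.5 dpi. The difference between type IIb and those cells did not pass over time (adjusted permutation p = 0.158).

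LincRNA behaved differently, with its highest values late. The median percent was 0.0762, 0.0737, 0.104 and 0.101 in uninjured mice, 0.122, 0.242 and 0.147 at 5 dpi and 0.520, 0.223 and 0.250 at 7 dpi. All 6 of these injured mice lay above the uninjured range. So did 2 dpi A (0.114) and 3.5 dpi C (0.167) and D (0.119), but no other mouse from 1 to 3.5 dpi. The mean at 7 dpi was 3.73 times the uninjured mean, with 7 dpi A the highest. At the median depths of uninjured type IIb cells, 2118 to 3027 UMIs, the uninjured percents stand for few UMIs per cell. The adjusted permutation p was 0.00336 over time, 0.0536 when means over cells replaced medians and 0.335 as percent of summed UMIs. The 7 dpi mice had values of 0.703, 0.273 and 0.202 in type IIx cells.

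Genes per UMI, the number of genes found divided by the UMIs of a cell, went from 0.302 ± 0.028 in uninjured mice to 0.428 ± 0.039 at 2 dpi (n = 4 and 3, adjusted permutation p = 0.00894). Within each of the 20 mice it was lower in deeper cells, with Spearman correlations from -0.949 to -0.745 across cells, which share their library and are no replicates. The DoubletFinder score (adjusted permutation p = 0.0571), the antisense percent (0.350) and the bidirectional promoter lncRNA percent (0.449) did not pass. The DoubletFinder score passed among cells with at least 750 genes, and also without the 2 libraries over 100000 reads per cell.

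Single time points could not be placed with confidence. None of 60 two-sided exact permutation tests of a measure at 1 time point against uninjured mice passed after adjustment (smallest adjusted p = 0.107). In 16 the unadjusted p was 0.0286, the smallest possible, and in 17 (28.3%) the groups did not overlap. With that floor, a pass after adjustment over 60 tests needed many more tests at the smallest p. The miss therefore says little about single time points. When the 7 called measures were recomputed on cells that both sets of labels called type IIb, none passed (adjusted permutation p from 0.102 to 0.275), with 17 mice left, 1 of them at 3.5 dpi. Each of the 7 kept the sign of its largest difference from uninjured muscle.

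**Figure D4:**
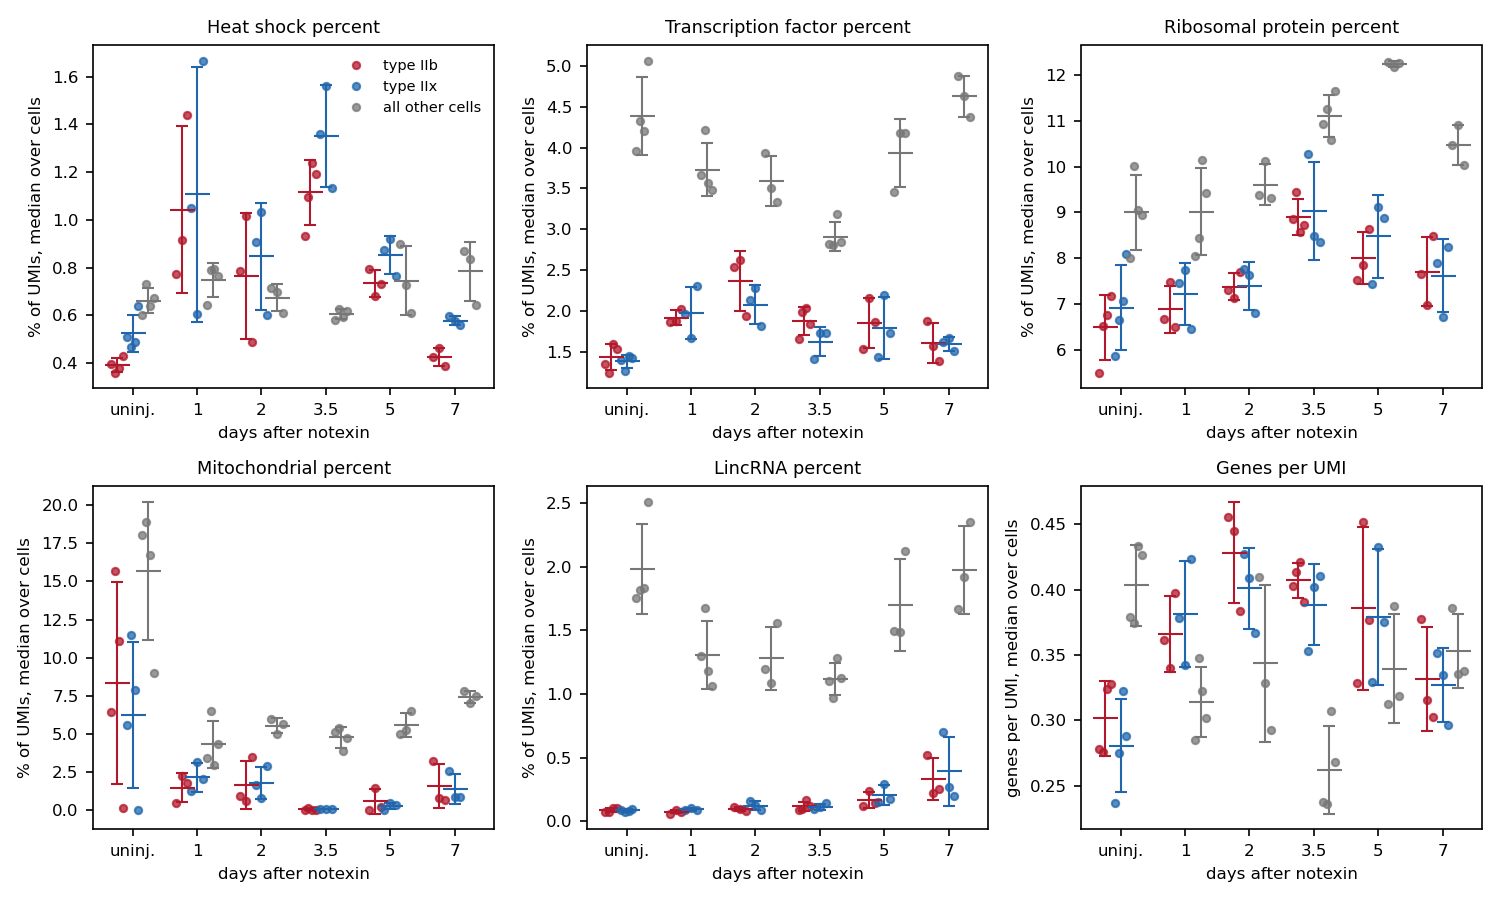
Per-mouse medians over type IIb cells (red), type IIx cells (blue) and all other cells (grey) for 5 classes of transcripts, in percent of UMIs, and for genes per UMI, by days after notexin. Points are mice with at least 10 cells of the type, dashes are means and bars are SD. In type IIb cells the heat shock percent lay between 0.488 and 1.44 from 1 to 5 dpi, above all uninjured mice, and lincRNA rose to a mean of 0.331 at 7 dpi.

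Whether the time courses of the fiber types differed depended on how cells were summarised. The difference of the medians, type IIb minus type IIx in the same mouse, changed over time for none of the 12 measures after adjustment (0%, smallest adjusted permutation p = 0.153, n = 19 mice), while UMIs (0.0249), genes (0.0255) and the mitochondrial percent (0.0428) had an unadjusted permutation p under 0.05. Type IIb had 0.150 lower log10 UMIs than type IIx in uninjured mice, and 0.0272 higher at 5 dpi. With means over cells 2 differences passed, the mitochondrial percent and the bidirectional promoter lncRNA percent (smallest adjusted permutation p = 0.0205). As percent of summed UMIs 2 passed, the antisense percent and the bidirectional promoter lncRNA percent (smallest adjusted permutation p = 0.00285). Of the type IIb cells, 51.4% had no bidirectional promoter lncRNA UMI and 12.9% no antisense UMI. Both classes thus rest on few UMIs per cell. A p that misses the threshold does not show that the fiber types changed alike.

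Compared with all cells that carried neither myonuclear label, a comparison added after the values had been seen, the difference changed over time for 9 of the 12 measures (75%). The heat shock percent of the other cells stayed between group means of 0.605 and 0.784, and type IIb lay below them in all 4 uninjured mice, above them in all 3 mice at 1 dpi, in 2 of 3 at 2 dpi, in all 4 at 3.5 dpi and in 1 of 3 at 5 dpi, and below them in all 3 at 7 dpi (adjusted permutation p = 0.000440 for the difference). The depth of the other cells moved at the same time, as given above, and so did their make-up. Immune cells made up 2.71% of all cells in uninjured samples and 73.4% at 3.5 dpi. The protein-coding percent of the other cells went from 87.0 in uninjured mice to 94.2 at 3.5 dpi, and their transcription factor percent from 4.38 to 2.91. Within single types, the heat shock percent changed over time in 10 of the 20 tested, type IIb among them. The part of make-up in the 9 differences was not tested. Among cells of 1000 to 3000 UMIs in both, 2 of the 12 differences passed, the heat shock percent and the antisense percent (adjusted permutation p = 0.0274 for each).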

How the data were processed

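Single cells of dissociated muscle were captured with 10x Chromium v3 chemistry. The authors aligned reads to mm10 with Cell Ranger 3.1.0, removed ambient RNA with SoupX, filtered cells in Seurat (3.1.5 in the submitters' processing notes) and removed doublets with DoubletFinder. The deposited UMI totals per cell are expected counts, no longer whole after SoupX. Counts of reads per cell and of barcodes were deposited by the authors for each library. The deposited percent values are a cell's share of UMIs from a class of genes, and per sample the saturation and the reads in cells. The fraction values that the authors deposited are the SoupX contamination and the DoubletFinder score.

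Cells were counted by mouse with pandas 2.3.3 in Python 3.11.15, tested with numpy 2.4.6 and scipy 1.17.1 and plotted with matplotlib 3.10.9. Members and measures were chosen with earlier results of these data known, and the measures named are those past the threshold. The mouse was the unit, and the study's methods state that each was an independent animal. Time courses used a permutation test of the F statistic (100000 resamples) on arcsine square root shares, or on the medians of mice with at least 10 type IIb cells. Single time points used two-sided exact permutation tests of differences in means. P-values were adjusted by Benjamini-Hochberg at 0.05. Intervals of single samples, and the limit of 3 cells for a count of 0, cover counting error only. Alternatives were other filters, scales, labels and denominators, edgeR 4.0.16 (R 4.3.3), a block for the replicate letter, and the omission of each sample in turn. Tests were run on simulated data. The earlier labels, the comparison with all other cells and the percent of UMIs were added after the data had been seen. Values of single genes and samples of other ages were not analysed here.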

Additional observations from a re-analysis of the deposited data

Results flagged for a closer look

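Several values stood apart from the other mice of their group or differed from other cells. In groups of 4 mice, where chance flags about 1 group in 20, 4 of 39 groups examined held a mouse whose gap to its nearest neighbour exceeded Dixon's 95% critical value, all at 3.5 dpi. In replicate D the median type IIb cell had 2473 UMIs and 941 genes, above the other 3 mice. In replicate B the median mitochondrial percent of type IIb cells was 0.0985, above the others, though all 4 values stand for a few UMIs per cell at most. In replicate A 27.4% of the type IIb cells had the earlier type IIx label, far below the others. Replicate D rested on 18 type IIb cells, C on 28 and B on 35.

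The time course of type IIb cells differed from that of all cells without a myonuclear label in 9 measures, by a permutation test of the difference within each mouse. The adjusted p was 6.00e-05 for genes per UMI and for the transcription factor percent, 0.000440 for the heat shock percent, 0.000870 for UMIs per cell, 0.00202 for the protein-coding percent, 0.0106 for the antisense percent, 0.0268 for genes per cell, 0.0362 for the lincRNA percent and 0.0395 for the ribosomal protein percent. Of the 21 refits that each left out 1 sample, genes per cell missed the threshold in 4, the lincRNA percent in 8 and the ribosomal protein percent in 13. The other 6 passed in all of them. With the replicate block genes per cell also missed it (0.0583). The part of the depth of the other cells in the remaining differences was not tested beyond the comparison at 1000 to 3000 UMIs. The part of their changing make-up was not tested.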

How the results depend on the processing

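The type IIb share of all cells passed over time with the stricter filter on cells (adjusted p = 0.0317), the centred log ratio (0.0210), without the 2 libraries over 100000 reads per cell (0.0281), with the earlier labels (0.0301) and with edgeR with TMM (0.00214) or without it (0.0207), but not with untransformed shares, a 750-gene minimum or other denominators. Leaving out 1 sample gave 0.0143 to 0.110, under the threshold without 1 dpi B (0.0143), 1 dpi C (0.0397) or uninjured replicate C (0.0284). The type IIb share of myonuclei passed with the stricter filter (permutation p = 0.0120) and turned down with the earlier labels (permutation p = 0.0248). The share of non-immune cells (0.297 to 0.947) and of cells under 750 genes (0.609 to 0.984, and 0.984 with a minimum of 20 cells) did not pass without any 1 sample, and the sign of the largest difference turned in 2 and 6 of these refits. At 7 dpi the difference in share from uninjured muscle turned positive without uninjured replicate A (adjusted p = 0.700) or 7 dpi A (0.933), over a range of 0.4 to 0.933 when 1 sample was left out.

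Of the per-cell measures, 2 rather than 7 passed as percent of summed UMIs, where genes per UMI and heat shock remained, and 0 passed in cells with both labels type IIb. With at least 750 genes per cell 7 passed, but UMIs per cell and the DoubletFinder score took the place of the mitochondrial and ribosomal protein percent. Leaving out 1 sample left 6 to 8. For type IIb minus type IIx, 2 passed with means over cells (mitochondrial and bidirectional promoter lncRNA), 2 as percent of summed UMIs (antisense and bidirectional promoter lncRNA), and 0 to 1 without 1 sample (1, lincRNA, without 7 dpi replicate C). For type IIb minus all other cells, 2 passed at 1000 to 3000 UMIs, where the largest differences of genes per cell (adjusted p = 0.0903), ribosomal protein (0.258) and lincRNA (1) turned sign. The causes were not tested.

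Same-lettered replicates did not deviate together (correlations from -0.799 to 0.732, median -0.0212, 6 of 21 samples closest to their own letter). What the letters mark was not given in the sources used here. The study states that several time points were collected at once, and these correlations cannot exclude a shared collection day. With the replicate block the share of all cells had an adjusted p of 0.106, and 6 measures passed in place of 7.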
